A study of Mus musculus and Acomys cahirinus with 16 samples.

Results

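The genes described here encode the proteins that join neighbouring skin cells: the claudins and other tight junction proteins, the connexins of gap junctions, and the desmosomal cadherins with their plaque and corneodesmosome partners. They were picked by symbol alone (Cldn, Gja, Gjb, Gjc, Dsg or Dsc followed by a digit, and a fixed list from Dsp to Evpl). The rule itself uses no measured value, but earlier results of these data were known when it was chosen. This gave 75 of 56980 genes in the mouse table and 73 of 19818 in the spiny mouse table, which has no row for Cldn13 or Cldn34c6. Polyadenylated RNA was sequenced from skin of 2 rodents, the house mouse (Mus musculus) and an African spiny mouse (A. cahirinus). For each species there were 4 samples of untreated skin and 4 of skin under DMBA/TPA, a regimen in which DMBA, a mutagenic carcinogen, starts tumours and the phorbol ester TPA drives mutated keratinocytes to expand. The title of the series asks about resistance of the spiny mouse to squamous tumours under this regimen. The labels give no strain, sex, age, dose or duration, do not say whether treated skin was tumour or surrounding skin, and do not say that replicates were separate animals, so p-values measure the spread between these samples, which may in part be technical.

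Tight junctions seal the space between epithelial cells, and in skin they lie in the granular layer, where claudins form the strands and the Tjp proteins anchor them to actin. Gap junctions are channels built from rings of connexins that let small molecules pass from cell to cell, and the epidermis changes which connexins it uses when it proliferates. Desmosomes hold keratinocytes together mechanically: the cadherins Dsg and Dsc bridge the gap, and Jup, the Pkp proteins and Dsp tie them to keratin filaments.

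Library totals were 19608787 to 30198281 counts in mouse and 21143918 to 30561256 in spiny mouse, so that 3 counts correspond to 0.0982 to 0.153 CPM (counts scaled by TMM to a common library total), a floor that covers counting error only. Some libraries stood apart before any junction gene was considered. A list of 9 anagen hair follicle genes averaged 7.69 log2 CPM in untreated mouse replicate 2 and between -1.03 and 1.51 in the other 3, against 10.7 to 10.8 in all 4 treated mouse samples. In spiny mouse the same list stood at 9.63, 9.75, 6.40 and 7.99 in untreated and at 4.42, 4.02, 8.01 and 6.70 in treated replicates 1 to 4. Untreated mouse replicate 1 also carried liver transcripts, at 5.32 log2 CPM on a list of 8 genes against -1.21 to -0.88 in the other untreated samples. Skin identity was clear in every library, with basal epidermal markers between 9.65 and 10.36 log2 CPM. Skeletal muscle markers went from 10.07 to 7.80 in mouse and, in the other species, from 8.56 to 7.40 (exact permutation p = 0.02857 for both, adjusted 0.05274 over 24 list tests, the smallest value 4 against 4 allows).

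In mouse skin, 52 of the 75 genes passed the count filter, and 27 of them rose and 11 fell with DMBA/TPA (edgeR quasi-likelihood test, adjusted p under 0.05). This is 73.1% of those tested, beside 61.2% of all 19740 tested mouse genes, with 25.9% of all genes higher and 35.3% lower. Scaling by library size alone gave 24 higher and 13 lower junction genes, where 3538 of all genes were higher and 8831 lower. In spiny mouse 48 of 73 were tested, and 10 rose while 17 fell, or 56.3%, beside 55.1% of all genes with 28.2% higher and 26.9% lower. The share called in spiny mouse was thus close to the background. The median log2 fold change of the tested junction genes was 0.56 in mouse and -0.23 in spiny mouse, where the medians of all tested genes were -0.146 and -0.01. In whole skin, a change in the number of cells of a type and a change in RNA per cell cannot be told apart.

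Across the 46 junction genes tested in both species, the response was smaller in spiny mouse for 25 and larger for 4 by a species by treatment interaction test (23 and 8 with upper-quartile scaling, 23 and 9 with library size alone, and 8 larger without untreated mouse replicate 2). This was 63.0% in all, beside 46.1% of 13656 shared genes, with 24.7% smaller and 21.4% larger. Over all shared genes, library size alone gave 2201 smaller and 4305 larger. Smaller here means a lower log2 fold change in spiny mouse and larger a higher one, whatever the size of the change in either species. The median difference in log2 fold change, spiny mouse minus mouse, was -0.80, against -0.032 over all shared genes. Of the 46, 6 rose in both species (among them Dsg3, Gjb2, Jup, Pkp1 and Pkp3), 5 fell in both (Cldn11, Cldn19, Cldn23, Gjc1 and Tjp3) and 5 rose in mouse and fell in spiny mouse (among them Cldn1, Cldn3, Evpl and Pkp2). Another 13 rose in mouse and were not called in spiny mouse, among them Gja1, Gjb6, Cldn4, Dsc2, Cdsn and Dsp. No share over all shared genes is at hand for these joint counts, so they only list members. Groups did not overlap for 38 of the 52 tested mouse genes, beside 58.6% of all tested mouse genes, and for 19 of the 48 tested in spiny mouse, beside 50.9%.

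**Figure D1:**
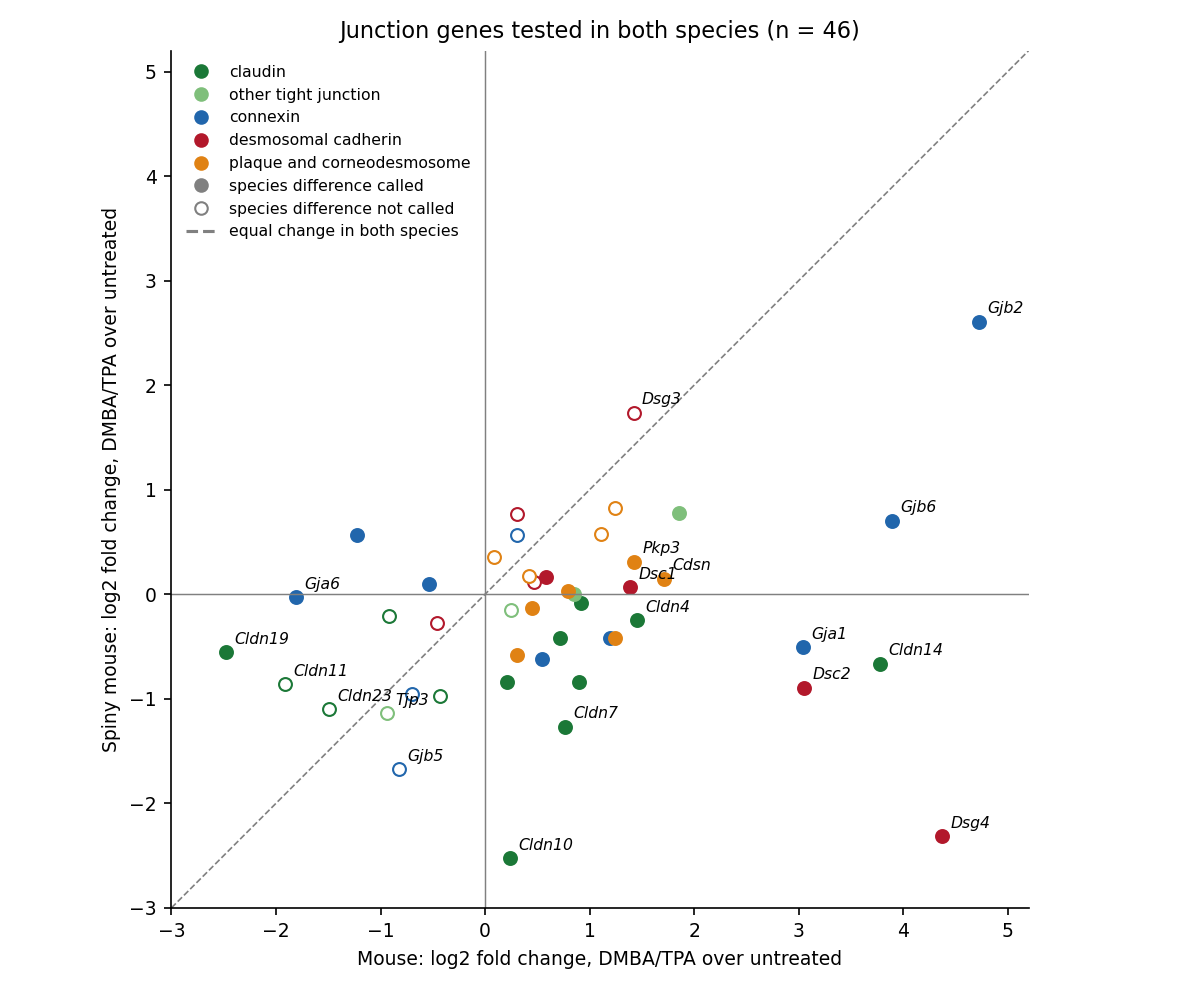
Log2 fold changes (DMBA/TPA over untreated) of the 46 junction genes tested in both species, mouse on the x axis and spiny mouse on the y axis. Filled points passed the test of the difference between the species, and the dashed line marks an equal response. Most filled points lie below the line. Of the 6 points farthest to the right, Gjb2 and Gjb6 lie above 0 on the y axis, and Dsg4, Cldn14, Dsc2 and Gja1 lie below it.

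Some connexins rose and others fell in each species. In mouse 5 rose and 5 fell of 14 tested, or 35.7% each way, beside 25.9% higher and 35.3% lower over all tested genes. In spiny mouse 3 rose and 4 fell of 12, or 25% and 33.3%, near the 28.2% and 26.9% of all tested genes. Gjb2, a connexin that is sparse in resting epidermis between follicles and abundant in hyperproliferative epidermis, rose in both species. Gja1, the most widespread connexin of skin and present in basal and spinous layers, and Gjb6, a follicle and epidermal connexin mutated in hidrotic ectodermal dysplasia, rose in mouse and were not called in spiny mouse.

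The 300 bases around the annotated starts of 4 responsive mouse genes are shown because TPA acts in part through AP-1, a factor that binds TGANTCA. Each window covers 250 bases before the start and 50 after, from RefSeq on the GRCm38.p6 build, with matches to TGANTCA on either strand in capitals. The positions are chr10:56377050-56377349 (plus strand) for Gja1, chr5:134946885-134947184 (minus strand) for Cldn4, chr14:57104653-57104952 (minus strand) for Gjb2 and chr14:57133562-57133861 (minus strand) for Gjb6.
Gja1: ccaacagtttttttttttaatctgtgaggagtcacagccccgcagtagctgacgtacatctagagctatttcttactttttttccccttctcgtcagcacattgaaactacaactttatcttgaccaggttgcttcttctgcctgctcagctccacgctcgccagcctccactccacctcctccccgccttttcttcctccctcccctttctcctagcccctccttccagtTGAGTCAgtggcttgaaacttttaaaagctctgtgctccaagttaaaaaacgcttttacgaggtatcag
Cldn4: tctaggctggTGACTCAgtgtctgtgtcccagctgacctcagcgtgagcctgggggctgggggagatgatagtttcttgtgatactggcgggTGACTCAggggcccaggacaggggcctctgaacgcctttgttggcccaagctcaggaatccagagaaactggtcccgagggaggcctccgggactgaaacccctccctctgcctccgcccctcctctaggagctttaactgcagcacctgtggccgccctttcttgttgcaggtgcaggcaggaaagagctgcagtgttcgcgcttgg
Gjb2: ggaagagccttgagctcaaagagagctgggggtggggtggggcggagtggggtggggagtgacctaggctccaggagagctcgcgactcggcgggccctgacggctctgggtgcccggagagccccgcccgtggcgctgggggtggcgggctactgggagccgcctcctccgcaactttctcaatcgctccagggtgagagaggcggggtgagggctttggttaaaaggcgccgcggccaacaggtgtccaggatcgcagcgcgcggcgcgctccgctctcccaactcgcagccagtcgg
Gjb6: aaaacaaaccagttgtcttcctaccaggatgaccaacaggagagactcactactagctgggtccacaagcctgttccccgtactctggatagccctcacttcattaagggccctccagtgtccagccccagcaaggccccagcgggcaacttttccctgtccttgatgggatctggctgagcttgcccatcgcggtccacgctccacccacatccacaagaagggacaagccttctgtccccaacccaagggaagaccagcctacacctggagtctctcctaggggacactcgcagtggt
The match in Gja1 begins 19 bases before the start, and those in Cldn4 begin 240 and 158 bases before it. Gjb2 and Gjb6 rose more than either in mouse and have no match in this window. Windows were found for 44 of the junction genes, 60 windows in all, and 6 of the 60 hold a match (those of Gja1, Cldn4, Cldn15, Cldn34b2, Cldn34b4 and Cldn34d), where 7.81% of all 32851 windows do. A match describes the letters only and does not show binding.

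Gjb2 in mouse stood at 24.9, 142, 17.7 and 45.6 CPM in untreated replicates 1 to 4 and at 1691, 1424, 1573 and 1412 in treated ones. Every treated sample was far above every untreated one. Untreated replicate 2, the untreated library with the most hair follicle transcripts, was the highest of its group. The log2 fold change was 4.73 (SE 0.657, adjusted p = 0.000325), and 5.79 without untreated replicate 2. In spiny mouse Gjb2 went from 564, 485, 184 and 244 to 2598, 2248, 1723 and 2437 CPM, with a log2 fold change of 2.61 (SE 0.351, adjusted p = 0.000292). The groups did not overlap there either, and the 2 untreated samples with more hair follicle transcripts were the higher ones. Among treated samples, replicate 3, the highest on the hair follicle list, was the lowest for Gjb2. The part of the follicle in these levels was not tested. The species difference was -2.12 (SE 0.714, adjusted p = 0.0239), a call that was lost without untreated spiny mouse replicate 1 (-1.84, adjusted p = 0.0537).

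Gja1 was at 252, 436, 225 and 248 CPM in untreated mouse skin and at 2617, 2466, 2287 and 2185 in treated skin. All 4 treated samples lay above all untreated ones, by a log2 fold change of 3.04 (SE 0.249, adjusted p = 2.09e-05). In spiny mouse the untreated samples held 2008, 1723, 975 and 1155 CPM and the treated ones 861, 948, 1388 and 931. These groups overlapped, with a log2 fold change of -0.51 (SE 0.244, adjusted p = 0.106) that was not called by edgeR. It was called by DESeq2 (adjusted p = 0.0416) and without untreated replicate 3 (adjusted p = 0.0355) or treated replicate 3 (adjusted p = 0.0426). The difference between the species was -3.55 (SE 0.359, adjusted p = 2.71e-06). In spiny mouse Gja1 was higher in untreated replicates 1 and 2 and in treated replicate 3, the libraries highest on the hair follicle list in their groups, and the part of the follicle in this difference was not tested.

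Gjb6 rose in mouse from 4.44, 15, 5.17 and 9.47 CPM to 133, 112, 127 and 134, a log2 fold change of 3.90 (SE 0.366, adjusted p = 3.99e-05). In spiny mouse it stood at 55.9, 42.9, 19.1 and 15.9 CPM untreated and at 48.7, 52.8, 72.7 and 43.7 treated, with overlapping groups and a log2 fold change of 0.70 (adjusted p = 0.139). It was called without untreated replicate 1 (1.06, adjusted p = 0.0304). Untreated replicates 1 and 2 and treated replicate 3, the follicle-rich libraries of their groups, were the highest for Gjb6 too. The species difference was -3.20 (SE 0.551, adjusted p = 0.000261). Gja3, best known from the lens, had 0, 52, 2 and 0 counts in untreated mouse skin and 477, 484, 656 and 559 in treated skin. It rose by 5.30 on the log2 scale (SE 0.959, adjusted p = 0.00138), and by 9.55 without untreated replicate 2, which held 52 of the 54 untreated counts. In spiny mouse Gja3 had 74 counts in all 8 libraries and did not pass the filter. Gja3, Gjb2 and Gjb6 are neighbours, within 99.2 kb of mouse chromosome 14 (57271917 to 57371068, GRCm39) and within 107.2 kb of scaffold_6 of the spiny mouse assembly.

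Gjb5, a connexin of epidermal keratinocytes, fell in spiny mouse from 47.4, 50.6, 42.8 and 38 CPM to 12.8, 14.3, 17.8 and 11.2, a log2 fold change of -1.67 (SE 0.149, adjusted p = 3.91e-05). All treated samples lay far below the lowest untreated one. In mouse Gjb5 stood at 65.1, 19.2, 58.1 and 68.3 CPM untreated and at 33.9, 28.8, 27.2 and 29.0 treated. Untreated replicate 2 lay below all treated samples and the other 3 untreated ones above them, and the log2 fold change of -0.83 (adjusted p = 0.0518) became -1.01 (adjusted p = 4.53e-06) without it. The difference between the species was -0.85 (adjusted p = 0.0856) and was not called. It was called without untreated mouse replicate 2 (-0.66, adjusted p = 0.00828), with DESeq2 size factors (-0.96, adjusted p = 0.0463) and by the DESeq2 test (adjusted p = 0.0234).

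**Figure D2:**
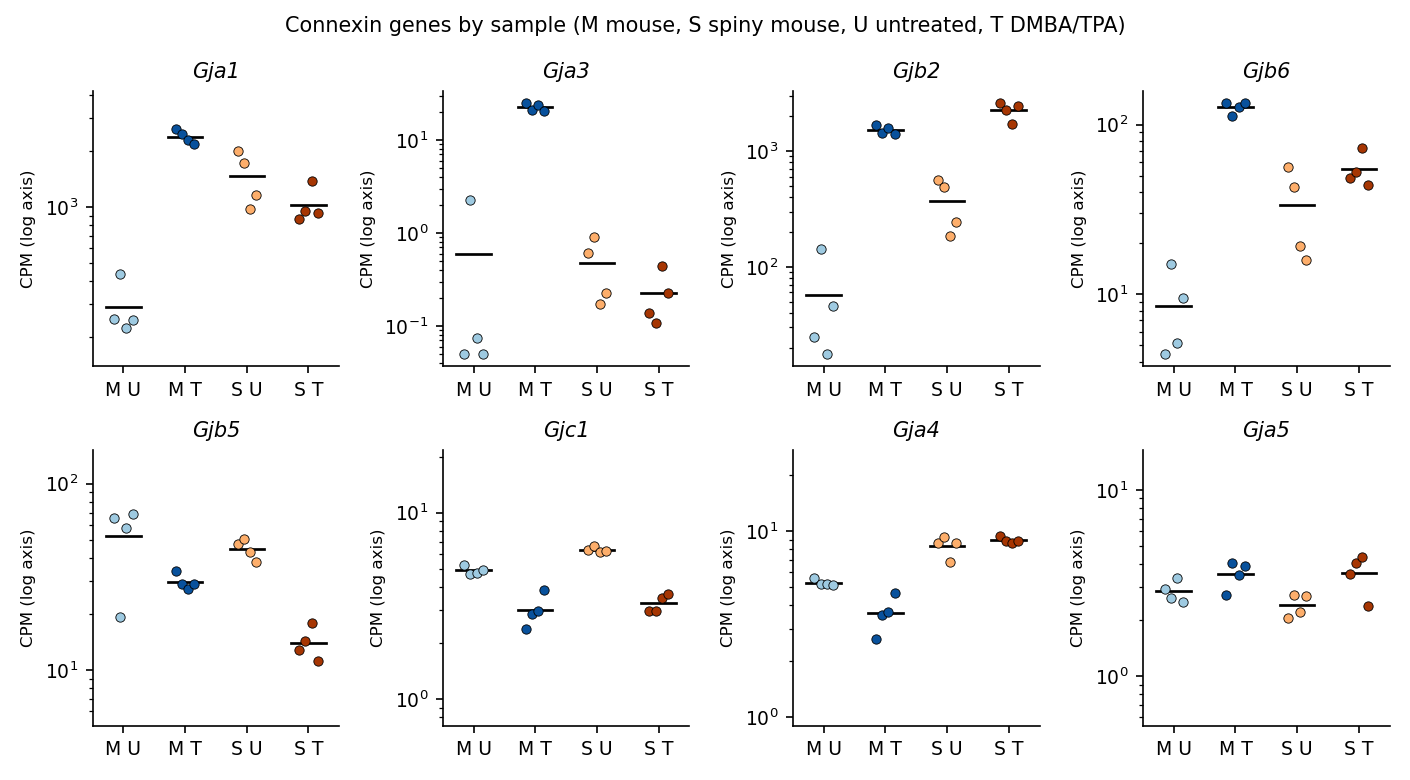
Levels of 8 connexin genes in each of the 16 samples, as TMM-scaled CPM on a log axis (values under 0.05 are drawn at 0.05). Points are samples and bars are group means. Gja1, Gjb6, Gja3 and Gja4 separate only the mouse groups, Gjb2 separates the groups of both species, Gjb5 and Gjc1 are lower in treated spiny mouse skin, and the groups of Gja5 overlap in both species.

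The connexins of vessels and nerve were scarce. Gjc1, found in vascular smooth muscle, fell in both species, from 4.91 ± 0.249 to 3.02 ± 0.624 CPM (SD, n = 4) in mouse and, in spiny mouse, from 6.33 ± 0.211 to 3.26 ± 0.357. Gja4, an endothelial connexin, fell in mouse from 5.29 ± 0.196 to 3.63 ± 0.824 CPM, and its spiny mouse value of 0.10 on the log2 scale was larger by 0.63 (adjusted p = 0.0198). Gjc3, a connexin of Schwann cells, fell in mouse from 2.91 ± 0.533 to 0.912 ± 0.194 CPM. Schwann cell markers, all 6 of which exceeded 1 CPM, had a summed level of 199.7 to 289.5 CPM in untreated and 84.1 to 93.6 in treated mouse skin, and 7 endothelial markers one of 214.6 to 237.4 and 148.3 to 185.4, and their part in these changes was not tested. Gjb1, a liver connexin, was not called in mouse (adjusted p = 0.538) and was highest, at 5.90 CPM, in the untreated library with liver transcripts.

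The makeup of the connexin family moved to Gjb2 in both species. Per kilobase of deposited gene length, Gjb2 made up 13.2% ± 14.3 of the connexin total in untreated mouse skin and 56.3% ± 1.42 after treatment (SD, n = 4). The untreated share was 34.4% in replicate 2, and the mean of the other 3 samples was 6.13%. In spiny mouse its share went from 18.6% ± 4.06 to 67.2% ± 7.97. In mouse the mean share of Gjb5 went from 16% to 1.54%. Gja1 made up 59.3% of the connexin total of untreated spiny mouse skin and 24.2% after treatment. The connexin sum went from 188.7 ± 22.1 to 1125 ± 84.1 CPM per kb in mouse and, in spiny mouse, from 760.3 ± 235.1 to 1336 ± 79.4. The deposited length of Gja1 is 10257 bases in mouse and 3237 in spiny mouse, so its share is not comparable between the tables.

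**Figure D3:**
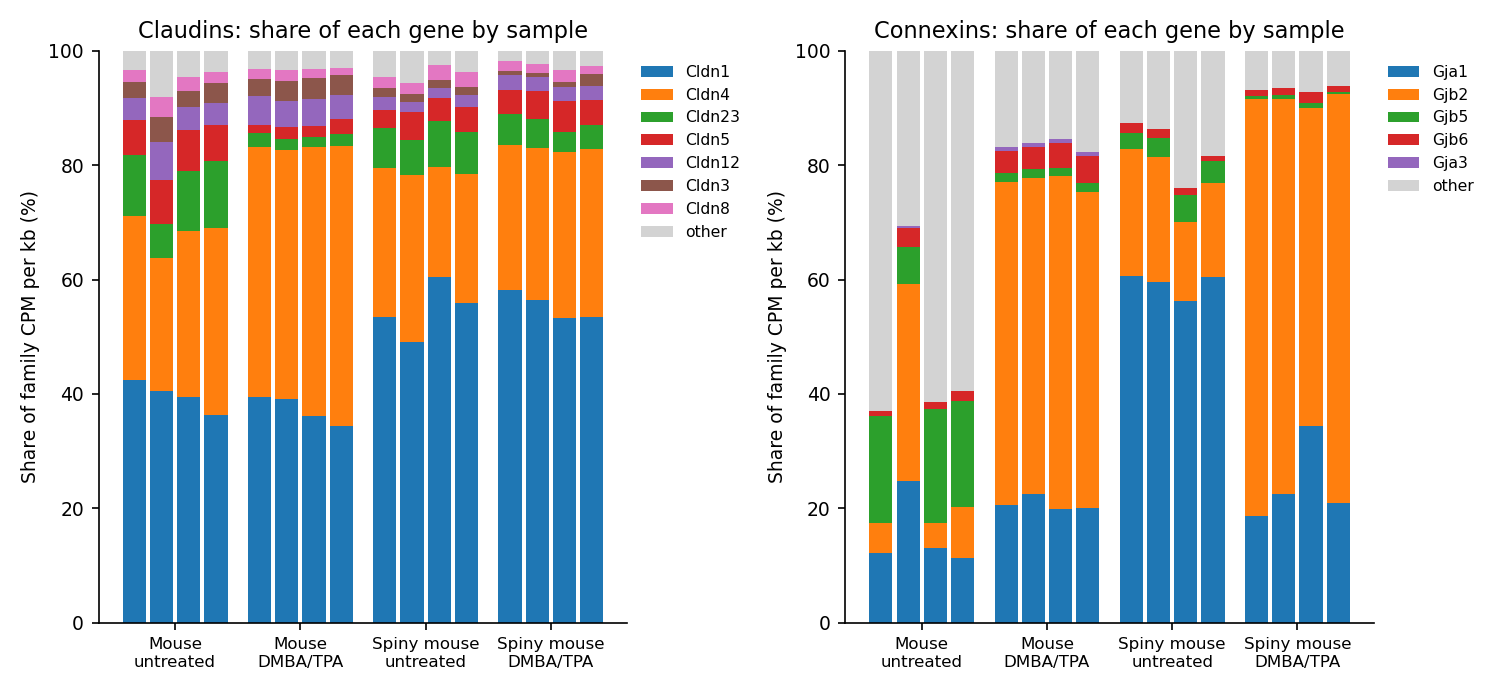
Share of each gene in the summed CPM per kb of its family, for claudins (left) and connexins (right), 1 bar per sample in the order of replicates 1 to 4. Blue and orange are Cldn1 and Cldn4 on the left and Gja1 and Gjb2 on the right, and grey is the sum of all other genes of the family. Gjb2 goes from a mean of 13.2% to 56.3% in mouse and, in spiny mouse, from 18.6% to 67.2%, while Cldn1 and Cldn4 make up most of the claudin total in every sample.

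Claudins mostly fell in spiny mouse and were divided in mouse. In mouse 6 rose and 5 fell of 15 tested, or 40.0% and 33.3%, beside 25.9% and 35.3% of all tested genes (median log2 fold change 0.24). In spiny mouse none rose and 10 fell of 14 (median -0.84), where 26.9% of all tested genes were lower. The log2 fold change was lower in spiny mouse for 8 of 13, beside 24.7% of all shared genes. It was higher for 1, Cldn19, which fell in both species and fell less there, beside 21.4%. Most of the spiny mouse falls were in scarce genes, such as Cldn10, a channel-forming claudin (4.06 ± 2.82 to 0.694 ± 0.403 CPM, groups overlapping), and 4 of the 14 had groups that did not overlap, where 50.9% of all tested genes did not.

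Cldn1, the main barrier claudin of epidermis, without which newborn mice lose water fatally, stood at 388, 180, 344 and 342 CPM in untreated and at 525, 520, 491 and 527 in treated mouse skin. It rose by 0.72 (SE 0.221, adjusted p = 0.0189) on the log2 scale, with untreated replicate 2 lowest, and the call was lost when library size alone was used for scaling (0.49, adjusted p = 0.0502). In spiny mouse it fell from 448, 430, 526 and 422 to 367, 352, 317 and 335 CPM, with a log2 fold change of -0.41 (SE 0.0904, adjusted p = 0.00395). Neither species had overlapping groups, and the difference was -1.13 (SE 0.246, adjusted p = 0.00158).

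Cldn4, a claudin of many epithelia and a receptor for a clostridial enterotoxin, rose in mouse from 98.7, 38.7, 94.7 and 115 CPM to 217, 216, 240 and 281. Treated samples lay above all untreated ones (log2 fold change 1.46, SE 0.290, adjusted p = 0.00227). The spiny mouse samples stood at 120, 141, 91.2 and 92.8 CPM untreated and 88.1, 91.2, 94.7 and 101 treated, which overlap (log2 fold change -0.25, adjusted p = 0.145). The difference was -1.71 (SE 0.339, adjusted p = 0.000797). Cldn3, which lies within 42.4 kb of Cldn4 on mouse chromosome 5 and binds the same toxin, rose in mouse from 6.71 ± 1.57 to 12.5 ± 1.43 CPM. In spiny mouse Cldn3 was called lower (4.73 ± 0.453 to 2.66 ± 1.49 CPM, adjusted p = 0.0457) with overlapping groups, and the call was lost in 7 fits that each left out 1 spiny mouse library (log2 fold change -0.88 to -0.68).

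The other claudins of skin differed in where they moved. Cldn23 fell in both, from 31.0 ± 14.3 to 11 ± 1.47 CPM in mouse, where untreated replicate 2 lay within the treated range, and from 33.7 ± 4.0 to 15.7 ± 3.30 in spiny mouse. Their log2 fold changes were -1.49 (adjusted p = 0.00685) and -1.10 (adjusted p = 0.000358). Cldn12 rose in mouse from 29.4 ± 2.49 to 55.5 ± 2.11 CPM (log2 fold change 0.91, adjusted p = 5.51e-05) and was at 21.6 ± 1.91 and 20.3 ± 0.862 CPM in spiny mouse (not called). Cldn8, a claudin of tight epithelia, fell in spiny mouse from 14.9 ± 2.25 to 8.34 ± 0.876 CPM, and went from 8.92 ± 1.23 to 10.3 ± 1.61 in mouse (not called). Cldn14, known from the inner ear and kidney, rose in mouse from 0.492 ± 0.325 to 6.76 ± 1.40 CPM, and the species difference in log2 fold change was -4.44 (SE 0.484). Cldn17 had 0, 1, 0 and 0 counts in untreated and 15, 13, 22 and 13 in treated mouse skin, and 41 counts in untreated against 7 in treated spiny mouse skin, where it was not tested.

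Claudins of vessel and nerve fell in mouse. Cldn5, the main endothelial claudin, went from 15.6 ± 3.69 to 8.26 ± 2.70 CPM (log2 fold change -0.91, adjusted p = 0.0128), with overlapping groups. Cldn19, present in Schwann cells, went from 4.76 ± 0.458 to 0.838 ± 0.423 CPM (log2 fold change -2.48, adjusted p = 0.000212), and Cldn11, a myelin claudin, from 0.979 ± 0.256 to 0.252 ± 0.0703. In spiny mouse Cldn19 fell by 0.55 on the log2 scale (adjusted p = 0.0490), a species difference of 1.92 (SE 0.369, adjusted p = 0.000622). In mouse the endothelial list went from 4.72 to 4.24 log2 CPM and the Schwann cell list from 4.17 to 2.87. The exact permutation p was 0.02857 for both (adjusted 0.05274). Of their genes, Pecam1 (-0.17), Cdh5 (-0.12), Tie1 (-0.22) and Sox10 (-0.16) were not called there, and the others were called lower. In spiny mouse these lists went from 4.96 to 4.86 (exact permutation p = 0.2571) and from 3.53 to 3.0 log2 CPM (p = 0.05714). There the endothelial genes moved both ways, with Kdr (-1.09) and Cdh5 (-0.33) lower, Vwf (0.55) higher and the others not called.

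The Tjp proteins are the scaffolds behind the strands. Tjp1 rose in mouse from 130 ± 14.8 to 234 ± 24.7 CPM and had the same mean, 228 CPM, in both spiny mouse groups. Tjp3, found in epithelia, fell in both, by 0.94 in mouse (adjusted p = 0.00754) and by 1.14 in spiny mouse (adjusted p = 5.93e-05) on the log2 scale. Ocln, the first transmembrane protein found in tight junctions, was not called in either species (38.9 ± 11 and 46.1 ± 1.76 CPM in mouse, 56.5 ± 9.45 and 51.0 ± 6.56 in spiny mouse). Exons of Cldn3, Cldn19, Dsg2, Dsp, Gja5 and Tjp3 in mouse, and those of Tjp3 and Pkp4 in spiny mouse, overlap exons of other genes. The counting command gives no strand option, and fragments that fall on shared exons are not counted. Levels of these genes may therefore be understated.

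Most desmosomal cadherins rose in mouse, and few were called in spiny mouse. In mouse 6 rose and none fell of 9 tested (median log2 fold change 1.39), or 66.7% higher beside 25.9% of all tested genes. In spiny mouse 2 rose and none fell of 8 (median 0.09), and the 25% higher was near the 28.2% of all tested genes. The log2 fold change was lower in spiny mouse for 4 of 8, beside 24.7% of all shared genes. Their genes lie side by side, within 643.6 kb of mouse chromosome 18 and 499.3 kb of spiny mouse scaffold_3.

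Dsg3, the basal layer desmoglein and target of pemphigus vulgaris antibodies, rose in both species, from 200, 225, 177 and 234 to 648, 542, 532 and 517 CPM in mouse and, in spiny mouse, from 109, 67.9, 85.5 and 83.5 to 340, 257, 273 and 284. Each treated sample was far above the highest untreated one of its species. The log2 fold changes were 1.42 (SE 0.146, adjusted p = 6.37e-05) and 1.74 (SE 0.146, adjusted p = 3.03e-05), and their difference of 0.32 (SE 0.201, adjusted p = 0.213) was not called. Dsc3, the basal desmocollin, rose in spiny mouse from 905 ± 109 to 1544 ± 213 CPM (log2 fold change 0.77, SE 0.129, adjusted p = 0.000974). In mouse Dsc3 went from 1051 ± 248 to 1301 ± 153 CPM (log2 fold change 0.31, adjusted p = 0.226).

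Dsc2, the most widespread desmocollin, rose in mouse from 22.7, 32.5, 22.5 and 19.9 to 239, 207, 181 and 182 CPM, with a log2 fold change of 3.05 (SE 0.179, adjusted p = 5.45e-06). In untreated spiny mouse skin it stood at 579 and 458 CPM in replicates 1 and 2 and at 75.9 and 73.8 in replicates 3 and 4, and the treated samples held 139, 122, 204 and 173, between these pairs. The log2 fold change there was -0.90 (SE 0.631, adjusted p = 0.253), and the species difference -3.95 (SE 0.731, adjusted p = 0.000462). Dsg4, the desmoglein of the hair cortex whose loss gives the lanceolate hair phenotype, had 0.529, 29.3, 0.623 and 0.273 CPM in untreated and 176, 165, 148 and 144 in treated mouse skin. Its mouse log2 fold change was 4.37 (SE 1.28, adjusted p = 0.0151), and 8.42 without untreated replicate 2, the untreated sample with the most hair follicle transcripts.

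In spiny mouse Dsg4 went the other way in the values, from 173, 142, 12.9 and 46.4 CPM to 5.55, 2.21, 45.8 and 21.4, with overlapping groups and a log2 fold change of -2.32 (SE 0.969, adjusted p = 0.0679). It was called by DESeq2 (adjusted p = 0.0493) and without treated replicate 3 (adjusted p = 0.0257) or untreated replicate 3 (adjusted p = 0.0310). The species difference of -6.69 (SE 1.69, adjusted p = 0.00458) was the widest of the 46 genes, and was -10.74 without untreated mouse replicate 2. In both species Dsg4 was higher in the libraries with more hair follicle transcripts, and treated spiny mouse replicate 3, at 8.01 log2 CPM on that list, was the highest for Dsg4 within its group. How much of the change in Dsg4 and Dsc2 goes with the hair follicle was not tested.

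**Figure D4:**
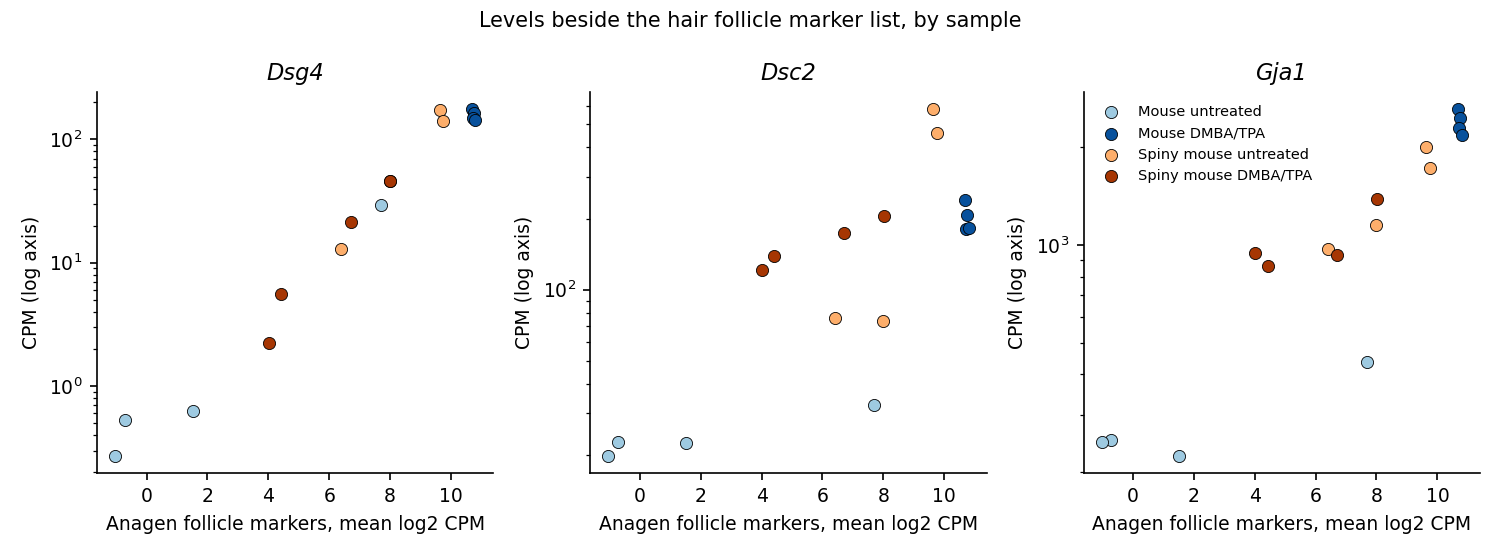
Levels of Dsg4, Dsc2 and Gja1 in each of the 16 samples (TMM-scaled CPM, log axis) against the mean log2 CPM of 9 anagen hair follicle genes in the same sample. All 4 treated mouse samples sit at 10.7 to 10.8 on the x axis. Dsg4 lies along a single band over both species, while Dsc2 is highest in the 2 untreated spiny mouse samples with the most follicle transcripts and lies between 122 and 239 CPM in the treated samples of both species.

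Among the desmosomal cadherins of the upper layers, Dsc1 rose in mouse from 601, 187, 513 and 639 to 1437, 1336, 1229 and 1083 CPM (log2 fold change 1.39, SE 0.340, adjusted p = 0.00635). The spiny mouse groups held 811 ± 116 and 851 ± 172 CPM (log2 fold change 0.07, adjusted p = 0.738), a difference of -1.32 (adjusted p = 0.0127). Dsg1, the target of pemphigus foliaceus antibodies, has 3 copies in the mouse annotation. In mouse Dsg1b rose from 195 ± 60.2 to 634 ± 96.0 CPM (log2 fold change 1.70, SE 0.252, adjusted p = 0.000458), while Dsg1a was at 1370 ± 526 and 995 ± 121 CPM (not called), and the 3 copies summed to 1567 ± 586 untreated and 1631 ± 210 treated. Fragments that map to several copies were not counted, so the split between them is uncertain. In the spiny mouse annotation Dsg1a, Dsg1b and Dsg1c overlap at a single locus, fragments that fall on shared exons are not counted, and their sum was 4.16 ± 0.668 and 3.55 ± 0.684 CPM, so these values are no measure of Dsg1 in that species. Dsg2, a desmoglein of simple epithelia and heart, rose in mouse from 43.8 ± 3.76 to 65.5 ± 5.24 CPM, and its difference between the species of -0.41 was lost under upper-quartile scaling (-0.24).

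Most plaque and corneodesmosome genes rose in mouse. There 8 of 10 rose and none fell (median log2 fold change 0.95), where 25.9% of all tested genes were higher. In spiny mouse 4 rose and 2 fell (median 0.16), beside 28.2% higher and 26.9% lower over all tested genes. Of the 10, 6 had a lower log2 fold change there than in mouse, beside 24.7% of all shared genes. Of the armadillo proteins, Jup, which binds the cadherin tails, rose in both species, from 778 ± 170 to 1846 ± 187 CPM in mouse and, in spiny mouse, from 809 ± 114 to 1435 ± 131. Pkp1, a plakophilin of the upper epidermis, also rose in both, from 902 ± 195 to 1945 ± 244 and from 1252 ± 101 to 1872 ± 195 CPM. The log2 fold changes were 1.25 and 0.83 for Jup (difference -0.42, adjusted p = 0.134) and 1.11 and 0.58 for Pkp1 (difference -0.53, adjusted p = 0.0619), so neither difference was called, and both were called under some alternatives.

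Pkp3, a plakophilin of all epidermal layers, rose in mouse from 363, 241, 332 and 411 to 945, 868, 897 and 902 CPM (log2 fold change 1.42, SE 0.179, adjusted p = 0.000187). In spiny mouse it went from 440, 398, 356 and 324 to 510, 489, 483 and 405, with overlapping groups, a log2 fold change of 0.31 (adjusted p = 0.0418) and a call that was lost in 6 fits that each left out 1 library. The difference was -1.11 (SE 0.208, adjusted p = 0.000512). Pkp4 rose in spiny mouse (98.2 ± 11 to 125 ± 13.5 CPM, adjusted p = 0.0152), and its difference of 0.26 was not called (adjusted p = 0.154), but was with upper-quartile factors (0.43, adjusted p = 0.0222) and library size alone (0.49, adjusted p = 0.00714). Pkp2, the plakophilin of heart and simple epithelia, was scarce, at 8.54 ± 0.646 and 10.5 ± 0.715 CPM in mouse and 18.8 ± 2.32 and 12.6 ± 1.94 in spiny mouse. Its mouse call (adjusted p = 0.0491) was lost under upper-quartile scaling, library size alone, the replicate block (adjusted p = 0.105) and when any of 3 libraries was left out.

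Dsp, the plakin that ties the plaque to keratin, was among the most abundant genes of the set, at 2834, 2567, 2275 and 3667 CPM in untreated and 5745, 4769, 4681 and 4512 in treated mouse skin. It rose by 0.80 on the log2 scale (SE 0.210, adjusted p = 0.00922) with no overlap. Spiny mouse skin held 3628, 2568, 2993 and 2832 CPM untreated and 3417, 2962, 3076 and 2853 treated, a log2 fold change of 0.03 (SE 0.127, adjusted p = 0.836). The difference was -0.76 (SE 0.235, adjusted p = 0.0149).

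Evpl and Ppl are plakins that seed the cornified envelope. Evpl rose in mouse from 225, 226, 176 and 306 to 599, 549, 541 and 520 CPM and fell in spiny mouse from 406, 330, 397 and 342 to 297, 266, 293 and 245. Neither species had overlapping groups, the log2 fold changes were 1.24 (SE 0.177, adjusted p = 0.000367) and -0.42 (SE 0.0970, adjusted p = 0.00527), and the difference was -1.66 (SE 0.201, adjusted p = 1.26e-05). Ppl was called higher in mouse (log2 fold change 0.45, adjusted p = 0.0496), a call lost under upper-quartile scaling, library size alone, the replicate block (adjusted p = 0.0756) and in 6 fits that left out 1 library. In spiny mouse it stood at 339 ± 63.2 and 310 ± 32.9 CPM, and the species difference of -0.58 was lost in the same settings, the replicate block (adjusted p = 0.0748) among them, and in 11 fits that left out 1 library. Suprabasal epidermal markers, of which 4 were in the mouse table and 5 in the spiny mouse table, moved both ways. In mouse Flg and Krt1 rose (log2 fold changes 2.80 and 2.19), Krt77 fell (-4.70) and Krt10 was not called (-0.01). In spiny mouse Flg and Krt1 rose (2.29 and 0.65), Krt77 and Lor fell (-3.31 and -2.39) and Krt10 was not called (0.30). Their summed level was 3693 to 12250 CPM untreated and 7666 to 12450 treated in mouse, and 9255 to 13960 and 9280 to 15260 in spiny mouse, and their part in the plakin changes was not tested.

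Cdsn, the glycoprotein that coats corneodesmosomes until they are cut for shedding, rose in mouse from 482, 197, 368 and 527 to 1405, 1269, 1239 and 1234 CPM (log2 fold change 1.71, SE 0.282, adjusted p = 0.000837). Spiny mouse skin was at 1212, 1020, 721 and 694 CPM untreated and at 1048, 1073, 986 and 937 treated, with overlapping groups (log2 fold change 0.15, adjusted p = 0.496). The difference was -1.56 (SE 0.344, adjusted p = 0.0018). Perp, a membrane protein of desmosomes, was the largest part of the group per kilobase, 51.5% and 40.5% in untreated and treated mouse skin and 43.4% and 40.6% in spiny mouse. It was not called in either species, although its mouse groups, 929 to 2564 and 2575 to 2860 CPM, did not overlap.

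**Figure D5:**
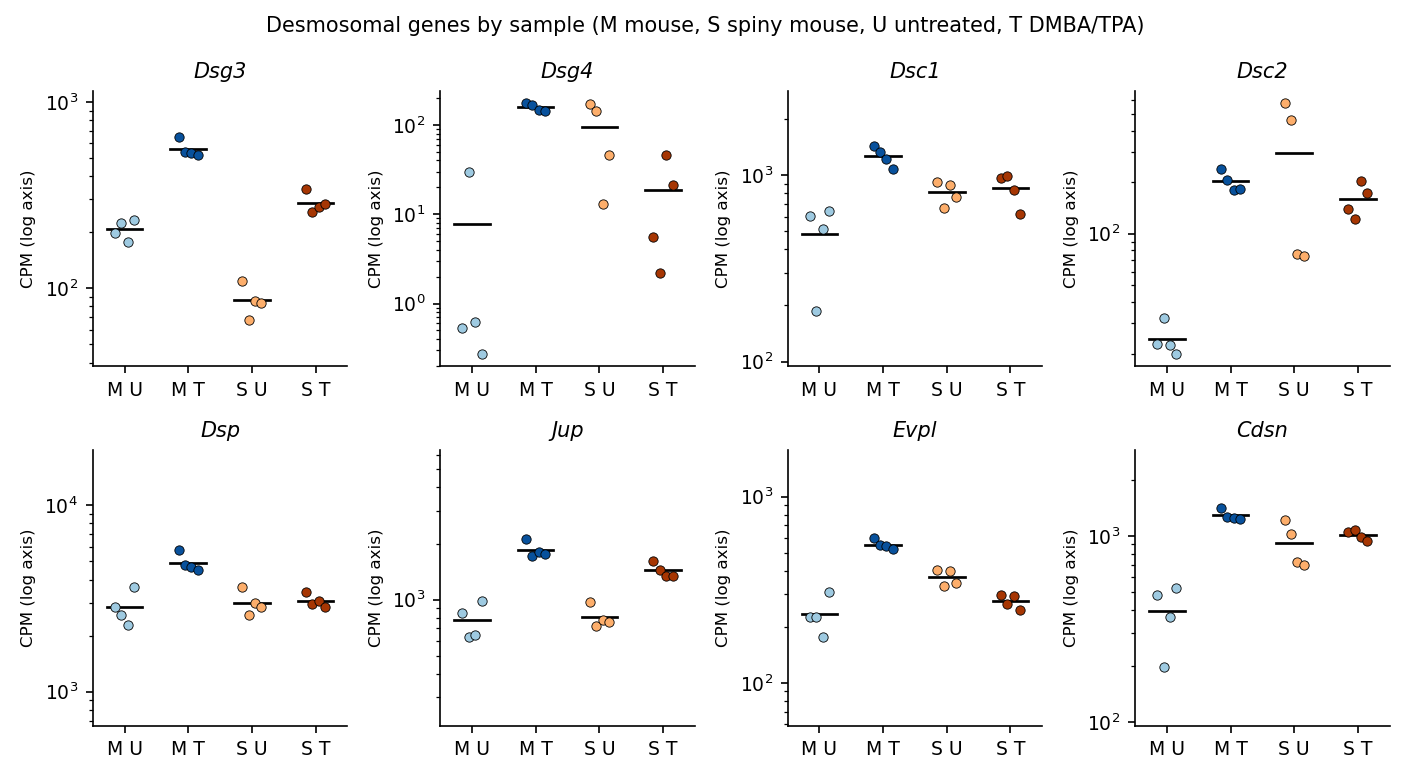
Levels of 8 desmosomal genes in each of the 16 samples, as TMM-scaled CPM on a log axis, with points for samples and bars for group means. Dsg3 and Jup are higher in treated skin of both species, Dsp, Cdsn and Dsc1 in mouse alone, and Evpl goes up in mouse and down in spiny mouse.

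Genes of neighbouring junctions outside the families were read from lists. Of 13 tested adherens junction genes, 9 rose and 2 fell in mouse (median log2 fold change 0.91), beside 25.9% higher and 35.3% lower over all tested genes. In spiny mouse 5 rose and 4 fell (median 0.11), beside 28.2% and 26.9%. The log2 fold change was lower there than in mouse for 6 and higher for 1, beside 24.7% and 21.4% of shared genes. Cdh3, the cadherin of basal and follicle cells, rose in both, from 46.2 ± 16.5 to 175 ± 9.62 CPM in mouse and, in spiny mouse, from 90.0 ± 4.99 to 372 ± 71.2. Ctnnb1, the armadillo protein of adherens junctions, rose in mouse (log2 fold change 1.18) and stood at 0.03 in spiny mouse, a difference of -1.15 (adjusted p = 2.40e-05). Of the other listed tight junction genes, 6 rose and 8 fell of 18 in mouse, and 2 rose and 8 fell of 17 in spiny mouse, to be read beside the same shares. Panx1, a channel protein related in form to connexins, rose in mouse from 21.4 ± 1.68 to 34.2 ± 2.42 CPM and fell in spiny mouse from 65.5 ± 5.42 to 23.0 ± 2.17, a difference of -2.19 on the log2 scale (SE 0.130, adjusted p = 2.73e-08).

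The remaining genes of the families were scarce. In mouse 23 did not pass the filter, 14 of them with 0 counts in all 8 libraries (13 claudins, mostly of the Cldn34 group, and Gja10), and the largest of the others, Cldn20, had 63 counts in all. In spiny mouse 25 did not pass and 12 were at 0. The Cldn34 genes overlap one another in that annotation, so their 0 counts do not measure expression.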

How the data were processed

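The authors deposited raw fragment counts per gene in 1 table for each species, with the summed exon length of each gene. Per the submitters' processing notes, Trim Galore, HISAT2 and featureCounts were used. Per the file headers, featureCounts 2.0.3 counted read pairs on GRCm39 with Ensembl 108 in mouse and on the AcoCah2 assembly in spiny mouse, with no strand option. Mouse identifiers were given symbols from GENCODE M39 (56236 named, 744 not). Untreated columns carry a code that is not in the labels and were matched to samples through their species letter and number. The column of untreated mouse replicate 2 has a further suffix of unstated meaning. All 16 count columns were used. GEO's design text is about irradiated fibroblasts, so the sample labels were followed.

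Within each species, genes were filtered (filterByExpr), scaled (TMM) and tested in edgeR 4.0.16 (R 4.3.3) by its quasi-likelihood F test. P-values were adjusted by Benjamini-Hochberg over all tested genes, and genes were called under 0.05. SE is the log2 fold change divided by the square root of F. The species difference is the species by treatment interaction over shared symbols. Levels were never tested across the tables, and per-length levels divide CPM by the deposited length. Marker scores are mean log2 CPM with a prior count of 2. The tests were checked on simulated counts. Full statistics went to genes called with groups that did not overlap in 1 species or both and a mean log2 CPM from 3 upwards, and other members are given by counts or single values. Alternatives were DESeq2 1.42.0, other scalings and filters, a replicate block and leaving out replicates. The members and lists were chosen with earlier results of these data known. A few members enter the counts and sums and are not reported here one by one.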

Additional observations from a re-analysis of the deposited data

Results flagged for a closer look

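Among 112 groups of 4 samples examined for a sample far from the others, 9 had one, where chance gives about 1 in 20 groups. In 3 of the 9 this was untreated mouse replicate 2, the untreated mouse library with the most hair follicle transcripts, as the highest of its group. There Gja1 stood at 435.9 CPM, Dsg4 at 29.3 CPM and Gja3 at 2.28 CPM. In mouse, Dsg2 was lowest in untreated replicate 3 (38.2 CPM) and highest in treated replicate 1 (73.3 CPM), which also held the highest Pkp1 (2310 CPM). In spiny mouse the samples apart were treated replicate 4 for Cldn3 (4.89 CPM), treated replicate 3 for Gja1 (1388 CPM) and untreated replicate 1 for Tjp1 (270.5 CPM).

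Of the 29 junction genes given with full statistics, 19 had a log2 fold change that differed between the species by the interaction test, each lower in spiny mouse. Connexins among them were Gja1 (-3.55), Gjb6 (-3.20) and Gjb2 (-2.12). The claudins were Cldn3 (-1.74), Cldn4 (-1.71), Cldn1 (-1.13), Cldn8 (-1.04) and Cldn12 (-1.0), with the scaffold Tjp1 (-0.85). Desmosomal cadherins were Dsg4 (-6.69), Dsc2 (-3.95), Dsc1 (-1.32) and Dsg2 (-0.41). Plaque and corneodesmosome genes were Evpl (-1.66), Cdsn (-1.56), Pkp3 (-1.11), Pkp2 (-0.88), Dsp (-0.76) and Ppl (-0.58).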

How the results depend on the processing

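Of the genes given with full statistics, 22 of 25 mouse calls, 13 of 15 spiny mouse calls and 16 of 19 calls of a species difference held in every alternative run. Those lost in at least 1 were Cldn1, Pkp2 and Ppl in mouse, Cldn3 and Pkp3 in spiny mouse, and Dsg2, Gjb2 and Ppl for the difference. Those gained in at least 1 were Dsc3 and Gjb5 in mouse, Dsg2, Dsg4, Gja1 and Gjb6 in spiny mouse, and Cldn23, Dsc3, Dsg3, Gjb5, Jup, Pkp1 and Pkp4 for the difference. The number of junction genes with a higher log2 fold change in spiny mouse than in mouse was 4. It was 8 under upper-quartile scaling, 9 when only library size was used and 8 without untreated mouse replicate 2, and the cause was not tested. The median log2 fold change of all mouse genes moved from -0.146 to -0.351 under upper-quartile scaling and to -0.384 by library size alone, and changes are to be read against it. Leaving out 1 replicate at a time gave 25 to 29 higher and 9 to 13 lower genes (35 to 42 in all) in mouse, 7 to 10 higher and 12 to 18 lower (19 to 26) in spiny mouse, and 3 to 8 larger and 22 to 27 smaller (26 to 35) for the difference. Leaving out untreated mouse replicates 1 and 2 together, chosen after seeing the data, gave 29 higher and 12 lower in mouse and 5 larger and 27 smaller for the difference. Only values near 0 that were not called changed sign: mouse Cldn8 (-0.03 with library size alone) and Pkp4 (-0.12 under upper-quartile scaling, -0.15 by library size), spiny mouse Dsc1 (-0.01 to 0.21 without 1 replicate), Dsp (0.0 with upper-quartile factors, -0.03 to 0.13 without 1 replicate) and Tjp1 (0.01 with no filter, 0.0 with a mean of at least 10 counts, -0.04 to 0.08 without 1 replicate), and Tjp3 for the difference (0.01 with library size alone).

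Replicate numbers recur in all groups, and the replicate block gave 26 higher and 10 lower in mouse, 9 higher and 13 lower in spiny mouse, and 4 larger and 24 smaller for the difference, with Tjp1 at 0.01 in spiny mouse. It ended the mouse calls of Pkp2 (0.30, adjusted p = 0.105) and Ppl (0.47, adjusted p = 0.0756) and the Ppl difference (-0.58, adjusted p = 0.0748), and no other call of the genes given with full statistics. No pairing by number was seen. Deviations of same-numbered samples correlated at 0.0094 on average in mouse and -0.355 in spiny mouse. None of the 4 correlated best with its own number in either species. Hair follicle content also differed between libraries, so this check cannot exclude pairing. Over all genes the block gave 4898 higher and 6348 lower in mouse, 3866 and 3552 in spiny mouse, and 2590 larger and 3133 smaller for the difference. Genes at under 3 counts per library could not be measured.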
